A study of Mus musculus with 6 samples.

Results

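Metallothioneins and zinc transporters were followed through the transcriptome of hypoxic heart cells treated with vehicle or β-sitosterol (β-SITO, a plant sterol). The 10 genes were taken by name from a table of 57010 genes: the metallothioneins Mt1 and Mt2, their transcription factor Mtf1, the zinc exporters Slc30a1 and Slc30a4, and the zinc importers Slc39a1, Slc39a6, Slc39a8, Slc39a10 and Slc39a14. All 10 had enough reads to be tested. RNA had been sequenced from primary neonatal mouse cardiomyocytes (NMCMs) in 6 libraries, 3 of the HO + Vehicle group (V1, V2 and V3) and 3 of the HO + β-SITO group (T4, T5 and T6), where HO stands for hypoxia, which every library shared. The cells came from hearts of C57BL/6 pups aged 1 to 3 days, with no transgene or deletion named, and the study's methods describe hypoxia as a gas of CO2 and N2 without oxygen. No library of normal oxygen was among them, so each value compares treated with untreated cells under hypoxia. How much β-SITO the cells of these libraries received, and for how long, was not given in the sources used here. Nothing in the labels says that the 3 libraries of a group were separate cultures, so the p-values measure the spread between these libraries, which may be technical.

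Zinc is kept low and bound inside cells. Metallothioneins are small cysteine-rich proteins that bind zinc and copper, and MTF1 is the zinc-sensing factor that switches their genes on when free zinc rises. The SLC30 proteins (ZnT) move zinc out of the cytosol, across the plasma membrane or into vesicles, and the SLC39 proteins (ZIP) move it in. In the heart, metallothioneins are known as antioxidant proteins induced by metals, glucocorticoids, hypoxia and inflammatory cytokines.

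With β-SITO, Mt1, Mt2 and Slc39a14 fell by more than 2-fold, and 5 more of the 10 genes fell by less. Mt1 was 5.41-fold lower, Mt2 was 25.0-fold lower and the importer gene Slc39a14 was 8.08-fold lower. Slc39a1 and Slc39a6 were 1.88-fold and 1.91-fold lower, and the exporter genes Slc30a1 and Slc30a4 and the factor gene Mtf1 fell by smaller steps. Slc39a8 alone rose, by 1.29-fold, and Slc39a10 did not pass the test. Each gene was tested with the quasi-likelihood method of edgeR, p-values were adjusted by Benjamini-Hochberg over all 14799 genes tested, and a gene was called changed at an adjusted p under 0.05.

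Many other genes differed between these groups, and the counts for the 10 genes are read against them. The 10 genes were chosen with earlier results of these data known, so their counts and median are descriptions and not tests. Of the 10 genes 1 was higher, against 33.0% of all tested genes, and 8 were lower, against 33.8%. A DEG was a changed gene that also differed by more than 2-fold. No gene of the set was a DEG in the upward direction, against 12.8% of all tested genes, since Slc39a8 rose by only 1.29-fold, while 3 were DEGs in the downward direction, against 10.1%. For 9 of the 10 genes all libraries of one group stood on one side of the other group, against 70.5% of all tested genes. The median log2 fold change was -0.74 over the 10 genes and -0.01 over all tested genes. Ranked by downward fold change, Slc39a14 stood at 460 of the 14799 tested genes, so other genes fell as far or further in these libraries. When libraries were scaled by their total counts alone, the whole table shifted by a median of 0.14 on the log2 scale. With that scaling 41.7% of all tested genes were higher and 25.8% lower, and the 8 falling genes still fell.

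The libraries held 16694734 to 17082129 counts in the vehicle group and 16962152 to 18460522 in the β-SITO group. The labelled cell type was checked against markers. All 10 cardiomyocyte markers were found, and their summed level was 6328 to 7261 CPM (the count of a gene per 1000000 counts of tested genes in the library, with library sizes scaled by TMM) with vehicle and 5177 to 8511 CPM with β-SITO, where T4 was the lowest. Of the cardiomyocyte markers 2 were higher, 2 were lower and 6 did not pass the test. Markers of other heart cells were also present, and none was at 0 in all libraries. The summed levels of 8 fibroblast markers were 29833 to 31113 CPM with vehicle and 44413 to 45501 CPM with β-SITO (5 higher, 2 lower). The 9 macrophage markers summed to 1118 to 1230 CPM against 2628 to 3225 CPM (7 higher, 0 lower), and the 7 endothelial markers to 191 to 219 CPM against 792 to 828 CPM (7 higher, 0 lower). The 5 smooth muscle markers summed to 576 to 623 CPM against 1149 to 1337 CPM (5 higher, 0 lower). Markers of fibroblasts, macrophages, endothelium and smooth muscle were thus mostly higher in the libraries where most of the zinc genes were lower, and their part in the results on zinc genes was not tested. Without T4, the library with the lowest cardiomyocyte markers, each of the 10 genes kept its call. In bulk RNA, fewer cells of a type and less RNA per cell cannot be told apart.

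Mt1 and Mt2 lie side by side on chromosome 8, Mt2 at chr8:94899292-94900196 and Mt1 at chr8:94905710-94906955, both on the plus strand (GRCm39), with 5513 bases between them. The other mouse metallothionein genes, Mt3 and Mt4, lie upstream in the same cluster, which spans 43131 bases. MTF1 binds metal response elements, whose core is searched here as TGCACNC or TGCGCNC on either strand. The 250 bases before the RefSeq start are shown for Mt2, Mt1 and the exporter gene Slc30a1, the classic target genes of MTF1. They are given 5′ to 3′ in GRCm38.p6 with the core matches in capitals. Other annotated starts of Mt1 and Mt2 lie nearer to the coding sequence, so these windows need not hold the elements known to read zinc. The Mt2 window is chr8:94172368-94172617, the Mt1 window chr8:94178839-94179088 and the Slc30a1 window chr1:191906531-191906780, all on the plus strand.
Mt2: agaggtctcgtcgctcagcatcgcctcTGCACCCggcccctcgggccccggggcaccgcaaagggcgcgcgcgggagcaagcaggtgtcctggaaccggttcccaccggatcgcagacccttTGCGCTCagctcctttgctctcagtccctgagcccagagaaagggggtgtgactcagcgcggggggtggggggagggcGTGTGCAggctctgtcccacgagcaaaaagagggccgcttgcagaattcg
Mt1: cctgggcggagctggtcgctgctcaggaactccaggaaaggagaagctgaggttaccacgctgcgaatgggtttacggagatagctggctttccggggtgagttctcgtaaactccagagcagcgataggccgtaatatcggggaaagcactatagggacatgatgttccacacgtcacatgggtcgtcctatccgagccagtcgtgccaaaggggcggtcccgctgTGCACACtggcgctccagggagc
Slc30a1: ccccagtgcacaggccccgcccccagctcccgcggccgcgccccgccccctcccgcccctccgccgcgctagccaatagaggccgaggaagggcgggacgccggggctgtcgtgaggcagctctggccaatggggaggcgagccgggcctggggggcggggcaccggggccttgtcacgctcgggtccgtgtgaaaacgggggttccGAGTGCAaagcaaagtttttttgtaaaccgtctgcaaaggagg

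The Mt2 window held 3 matches, the Mt1 window 1 and the Slc30a1 window 1. Of 32851 promoter windows of this length in the RefSeq table, 21.4% held at least 1 match and 1.26% at least 3. Among the other genes the Slc30a4 window held 2 matches, and the windows of Mtf1, Slc39a1 and Slc39a10 held 0. Slc39a8 had 0 matches before one start and 1 before the other. The table had an entry for 8 of the 10 genes, and Slc39a6 and Slc39a14 had none. A match is a description of the letters and not of a bound site.

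The metallothionein genes have more than 1 annotated start, and some core matches lie within the longest annotated transcripts. The RefSeq start of Mt1 lies 222 bases before the start codon, whereas GENCODE vM21 places starts 229, 100 and 70 bases before it. Within the 184 bases before the start codon, the whole such stretch of the GENCODE Mt2 transcript, Mt2 held 3 core matches, Mt1 held 2 and Slc30a1 held 0. The stretches of Mt1 and Slc30a1 are longer, at 229 and 240 bases, and only their last 184 bases were searched here. For Mt1 and Mt2 the bases between this part and the promoter windows were not searched. Of 24744 transcripts with a stretch of at least 184 bases, 0.461% had at least 3 matches in it and 3.21% at least 2. These sites are shown with 4 bases on either side, each named with its distance from the start codon, because they are the core matches nearest to the coding sequence.
Mt2, 172 bases: gggcGTGTGCAggcg
Mt2, 153 bases: gggcGCGTGCAtggt
Mt2, 119 bases: ctttTGCGCTCgacc
Mt1, 138 bases: tgctGGGTGCAaacc
Mt1, 124 bases: ccttTGCGCCCggac

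None of these sites lies in the promoter windows shown above, which end at the RefSeq starts, 230 bases before the codon for Mt2. Of the 8 genes with an entry, the site of the STAT factors (TTCNNNGAA) was found for 1, Slc39a10, against 7.02% of all windows. It lay before 1 start of Slc39a10 and not before its other start. The core of the antioxidant response element (TGACNNNGC) was found once each for Mt2, Slc30a1, Slc39a1 and Slc39a8, against 10.2% of all windows. For Slc39a8 it lay before 1 start and not before the other.

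Mt1, the ubiquitous metallothionein, was among the most abundant transcripts of the set. Its level was 339.2, 354.4 and 347.0 CPM in V1, V2 and V3 and 65.2, 63.5 and 63.6 CPM in T4, T5 and T6. Every vehicle library stood above every β-SITO library, and the 3 β-SITO libraries were nearly level. The mean fell from 346.8 ± 7.59 CPM (SD, n = 3) to 64.1 ± 0.968 CPM (SD, n = 3), which is -2.44 on the log2 scale (SE 0.058, 95% interval -2.56 to -2.31, edgeR adjusted p = 8.48e-15). No window of 50 bases of Mt1 was shared with another gene, so the annotation holds no identical source of its reads at that length.

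Mt2, its neighbour with the same function, fell further on a low level. It had 109, 123 and 115 counts in V1, V2 and V3 and 10, 3 and 3 counts in T4, T5 and T6. Those are 6.88, 7.71 and 7.13 CPM against 0.514, 0.169 and 0.156 CPM, so the groups were far apart and T4 was the highest of the β-SITO libraries. The log2 fold change was -4.64 (SE 0.283, 95% interval -5.25 to -4.04, edgeR adjusted p = 9.39e-10), and without T4 it was -5.42, which is 42.7-fold lower. Counts of 3 leave a wide relative error, and the fold of Mt2 is accordingly less sure than that of Mt1. Of the 50-base windows of Mt2, 45.8% were shared with the antisense long noncoding RNA gene Gm45774, which had 5, 3 and 10 counts with vehicle and 1, 0 and 0 with β-SITO. Whether the counting used strand was not given, and reads that fall in both genes may have been assigned to neither, so the low level of Mt2 beside Mt1 is uncertain.

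The pair was also summed, since the proteins are taken to act alike. Mt1 and Mt2 together came to 346.1, 362.1 and 354.1 CPM with vehicle and 65.7, 63.7 and 63.7 CPM with β-SITO. The groups did not overlap, the log2 difference of the summed level was -2.46, and an exact two-sided permutation test gave p = 0.1, the smallest p that 3 libraries against 3 can give. The pair took 0.0328% to 0.0346% of all counts with vehicle and 0.00668% to 0.00693% with β-SITO. There were 49.3, 46.0 and 48.7 Mt1 counts for each Mt2 count with vehicle, and 126.9, 376.7 and 407.0 with β-SITO, so the balance moved towards Mt1 in every treated library. Of the other metallothionein genes, the brain form Mt3 had 4, 6 and 11 counts with vehicle and 7, 9 and 20 with β-SITO, too few to test, and Mt4, known from stratified epithelia, was at 0 counts in all 6 libraries.

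Mtf1, the gene of the zinc-sensing factor on chr4:124695897-124743593, fell slightly. It stood at 32.5, 27.1 and 32.8 CPM with vehicle and at 24.2, 23.6 and 24.1 CPM with β-SITO. The β-SITO libraries lay close together, and V2, the lowest vehicle library, was still above them. The log2 fold change was -0.36 (SE 0.085, edgeR adjusted p = 0.00149). It overlaps the opposite-strand gene 1110065P20Rik, with which it shared 7.55% of its 50-base windows.

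**Figure D1:**
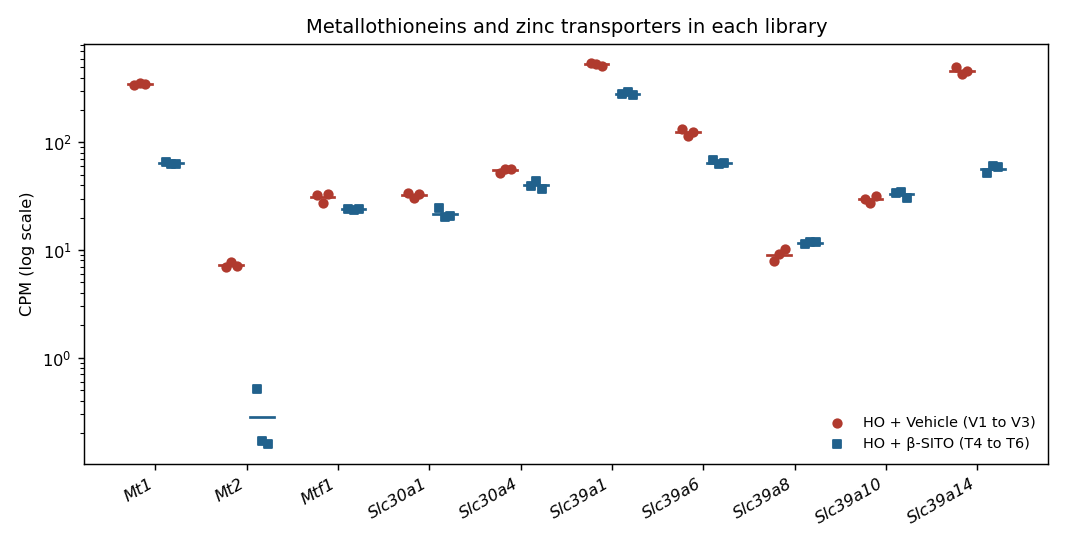
Level of each of the 10 genes in each library, in CPM on a log axis. Red circles are V1 to V3, blue squares are T4 to T6 and short lines are the group means. Mt1, Mt2 and Slc39a14 show the widest gaps between the groups, and the groups overlap for Slc39a10.

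The exporter genes fell together by modest amounts. Slc30a1 (chr1:191638879-191645359), whose protein ZnT1 removes zinc across the plasma membrane and whose gene is the best known MTF1 target after the metallothioneins, stood at 33.5, 30.1 and 33.1 CPM with vehicle and at 24.4, 20.3 and 20.6 CPM with β-SITO. T4 was the highest treated library and still lay under all vehicle libraries. On the log2 scale the change was -0.57 (SE 0.088, edgeR adjusted p = 3.81e-05), a 1.48-fold fall.

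Slc30a4 (chr2:122523153-122544583, minus strand), whose protein ZnT4 loads zinc into vesicles, stood at 51.7, 56.3 and 56.4 CPM with vehicle and at 39.7, 43.8 and 36.9 CPM with β-SITO. The groups did not overlap. This was a log2 fold change of -0.45 (SE 0.075, edgeR adjusted p = 7.52e-05). The falls of both exporter genes and of Mtf1 were smaller than that of Mt1, with 95% intervals that lay apart from its interval.

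Slc39a14 (chr14:70540918-70588874, minus strand) showed the largest change among the transporters of the set. It encodes ZIP14, which takes up zinc, manganese and iron that is not bound to transferrin, and which is known as the zinc importer that interleukin-6 induces in the liver. Its level was 495.8, 428.4 and 461.0 CPM in V1, V2 and V3 and 52.3, 60.1 and 59.1 CPM in T4, T5 and T6. Each vehicle library was far above each β-SITO library, by more than the spread within either group. The mean fell from 461.7 ± 33.7 CPM (SD, n = 3) to 57.1 ± 4.26 CPM (SD, n = 3), which is -3.01 on the log2 scale (SE 0.076, 95% interval -3.18 to -2.85, edgeR adjusted p = 1.70e-14).

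Slc39a1 (chr3:90155479-90160919), whose protein ZIP1 is a widely expressed importer of the plasma membrane, was the most abundant transporter transcript. It stood at 545.1, 539.8 and 510.4 CPM with vehicle and at 282.7, 291.2 and 273.6 CPM with β-SITO. The groups were well apart, and the fall stayed short of 2-fold, with a log2 fold change of -0.91 (SE 0.058, 95% interval -1.04 to -0.79, edgeR adjusted p = 1.46e-09). It shared 21.8% of its 50-base windows with the pseudogene Slc39a1-ps, which had 17 to 23 counts in every library against 5181 to 8630 for the gene itself.

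Slc39a6 (chr18:24712938-24736874, minus strand) encodes ZIP6, also called LIV-1, which forms a complex with ZIP10, the product of Slc39a10. Slc39a6 stood at 132.6, 113.7 and 125.5 CPM with vehicle and at 68.1, 62.5 and 63.9 CPM with β-SITO, with no overlap. Its log2 fold change was -0.93 (SE 0.068, 95% interval -1.08 to -0.79, edgeR adjusted p = 7.71e-09). It overlaps the opposite-strand gene Elp2, which had 1073 to 1387 counts per library. No 50-base window was shared between their annotated transcripts.

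Slc39a10 (chr1:46846704-46932012, minus strand) did not follow its partner gene. Its level was 30.003, 27.5 and 31.5 CPM with vehicle and 33.9, 34.2 and 30.5 CPM with β-SITO. T6 fell among the vehicle libraries, so the groups overlapped. The log2 fold change was 0.15 with a 95% interval of -0.02 to 0.32 (edgeR adjusted p = 0.113), an interval that includes 0. The 95% intervals of Slc39a6 and Slc39a10 lay far apart. With libraries scaled by total counts alone Slc39a10 passed the test (log2 fold change 0.30, adjusted p = 0.00362), on a scale where the median of all genes had also moved up.

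Slc39a8 (chr3:135531040-135594333) encodes ZIP8, which carries zinc and manganese. It stood at 7.83, 9.15 and 10.2 CPM with vehicle and at 11.3, 11.9 and 11.9 CPM with β-SITO. V3 came close to the treated libraries without reaching them. The log2 fold change was 0.37 (SE 0.114, 95% interval 0.12 to 0.61, edgeR adjusted p = 0.0106), and the call was lost with DESeq2 (adjusted p = 0.0517, against 0.000965 to 0.0517 over all alternatives). ZIP8 and ZIP14 are close relatives that carry the same metals, and their genes moved in opposite directions here.

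**Figure D2:**
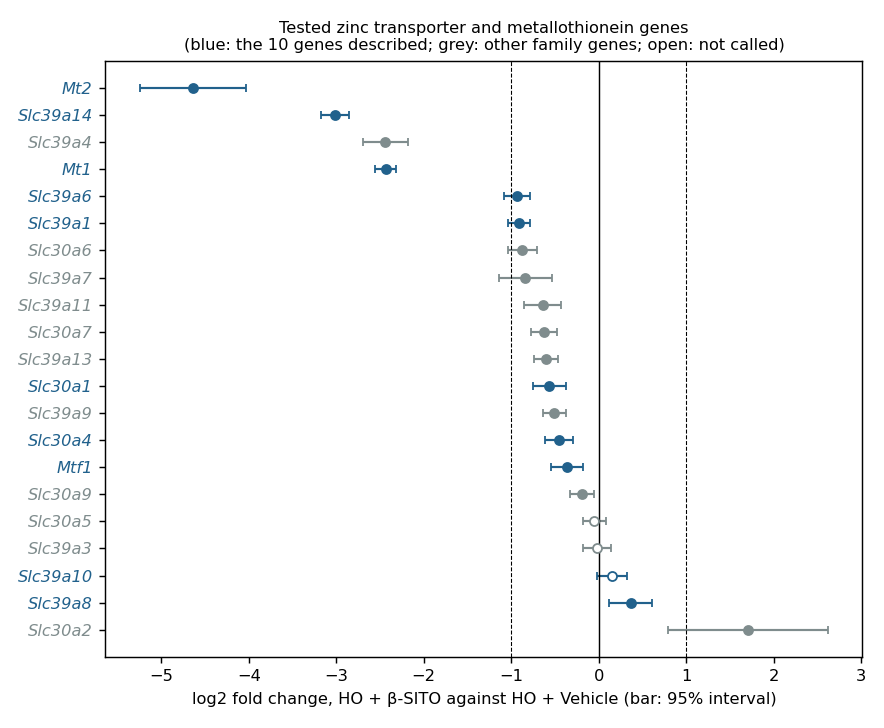
Log2 fold change of HO + β-SITO against HO + Vehicle for every tested metallothionein and zinc transporter gene and Mtf1, with 95% intervals as bars. Blue points are the 10 genes described, grey points are other genes of the families, open points did not pass the test and dashed lines mark 2-fold. Mt2, Slc39a14, Slc39a4 and Mt1 lie beyond the line on the left, and Slc30a2 is the furthest to the right with the widest interval.

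Levels of different genes were ordered as CPM per kilobase of annotated exon. This length joins the exons of all annotated transcripts of a gene, and for Mt1, at 1246 bases, it covers the whole gene. Which transcripts were in use was not known, so the order of the genes depends on these lengths. With vehicle, Mt1 was the highest of the 10 at 278.4 CPM per kilobase, followed by Slc39a1 at 224.9, Slc39a14 at 43.8, Slc39a6 at 30.4 and Mt2 at 12.3. Slc30a4 followed at 9.998, then Slc30a1 at 6.15, Slc39a10 at 4.86, Mtf1 at 3.46 and Slc39a8 at 1.18. The ranges over the 3 vehicle libraries of neighbouring genes in this order did not overlap.

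With β-SITO the order of these levels, taken by the same lengths, changed at the top and at the bottom. With a shorter length for Mt1 the change at the top might not be seen. Slc39a1 came first at 119.5 CPM per kilobase and Mt1 second at 51.4, then Slc39a6 at 15.9 and Slc30a4 at 7.32. Slc39a14, at 5.42, was level with Slc39a10, at 5.39, and their ranges over the libraries overlapped. Slc30a1 at 4.15, Mtf1 at 2.69 and Slc39a8 at 1.53 followed, and Mt2 was now last at 0.475 CPM per kilobase.

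The summed level of all 14 ZIP genes fell from 353.4 ± 11.1 to 179.4 ± 4.40 CPM per kilobase (SD, n = 3 each). Slc39a1 made up 60.6% of that fall, Slc39a14 22.04% and Slc39a6 8.34%. These parts rest on the exon lengths used. In CPM, without length, Slc39a14 fell by more (461.7 to 57.1) than Slc39a1 (531.8 to 282.5). Within the sum, the share of Slc39a1 was 63.7% with vehicle and 66.6% with β-SITO, and that of Slc39a6 was 8.61% and 8.88%. The share of Slc39a14 went from 12.4 ± 0.668% to 3.02 ± 0.248%, whereas Slc39a10 went from 1.38% to 3.004% and Slc39a8 from 0.336% to 0.851%. The make-up of the importer transcripts thus differed mainly in Slc39a14. The 10 ZnT genes summed to 49.6 ± 0.960 CPM per kilobase with vehicle and 36.6 ± 0.559 with β-SITO, and Slc30a4 held 20.19% and 19.996% of the sum and Slc30a1 12.4% and 11.4%.

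**Figure D3:**
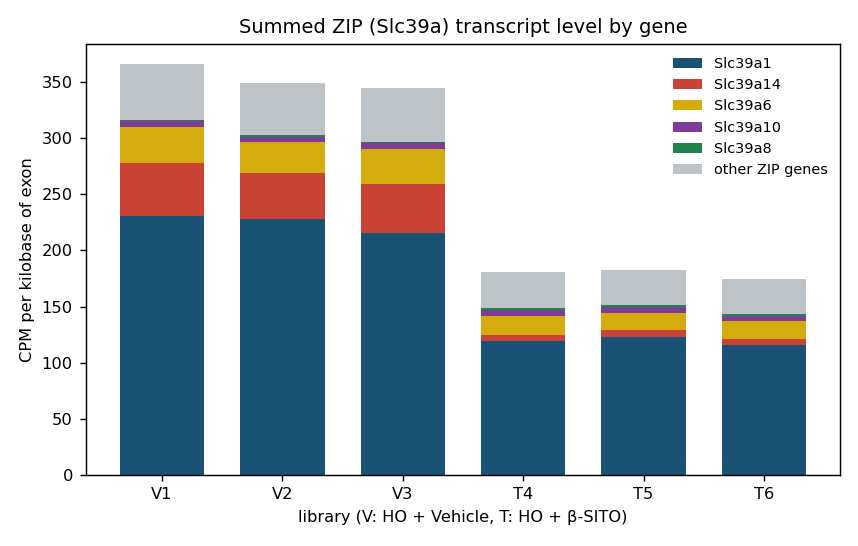
Summed transcript level of the 14 ZIP (Slc39a) genes in each library, in CPM per kilobase of exon, divided by gene. Slc39a1 is the largest share in every library, the Slc39a14 segment shrinks from 12.4% of the sum with vehicle to 3.02% with β-SITO, and the total falls from 353.4 to 179.4.

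The other genes of these families were taken as a whole, 19 in number. Of the 11 that had enough reads to test, 1 was higher, 8 were lower and 2 did not pass, with a median log2 fold change of -0.60, beside 33.0% higher and 33.8% lower among all tested genes. Slc39a4, which encodes the importer ZIP4 that takes up dietary zinc in the gut, had 255, 258 and 256 counts with vehicle and 63, 47 and 57 with β-SITO. It fell by 2.44 on the log2 scale (edgeR adjusted p = 7.27e-11), the same fold change as Mt1 to that precision. Slc30a2, whose protein ZnT2 fills secretory vesicles with zinc, had 10, 1 and 15 counts with vehicle and 37, 34 and 30 with β-SITO. It rose by 1.71 on the log2 scale (edgeR adjusted p = 0.00241), from a low and uneven vehicle level. That is a 3.27-fold rise, and it ranged from 2.28-fold without V2 to 5.17-fold without V3 as each library was left out.

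The 3 remaining family genes with the highest level per kilobase, averaged over the 6 libraries, all fell. Slc39a13, whose protein ZIP13 works in the secretory pathway, had a log2 fold change of -0.60 (edgeR adjusted p = 9.63e-07). Slc39a9, also of that pathway, had -0.51 (edgeR adjusted p = 3.25e-06), and Slc30a6, which forms a transporter of the Golgi together with Slc30a5, had -0.87 (edgeR adjusted p = 1.09e-07). The genes that did not pass, named after their values were seen, were Slc30a5 at -0.05 and Slc39a3 at -0.02. Slc30a9, also named after its values were seen, was called lower at -0.19 (edgeR adjusted p = 0.0140) and lost the call without V1, without V3, without T4 or without T5, and with libraries scaled by upper quartile or by total counts alone. Together with the 10 genes, 2 of 21 tested genes were higher and 16 were lower, beside 33.0% higher and 33.8% lower in the whole table. Over all ZIP genes 1 of 11 tested rose and 8 fell, and over all ZnT genes 1 of 7 tested rose and 5 fell, against the same whole-table shares.

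Genes around this system were listed from textbook knowledge, but with earlier results of these data known. The counts and medians of these lists are therefore descriptions and not tests. Of 6 other genes described as MTF1 targets, 2 rose, 2 fell and 2 did not pass, with a median log2 fold change of -0.04. Selenow, a selenoprotein gene, fell by 1.02 on the log2 scale (edgeR adjusted p = 4.02e-09) and Selenoh, another selenoprotein gene, rose by 0.82 (edgeR adjusted p = 1.32e-05). These counts are near the shares of all tested genes, of which 33.0% were higher and 33.8% lower.

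Of 8 other factors described on metallothionein promoters, 5 fell, none rose and 3 did not pass, with a median log2 fold change of -0.62, where 33.8% of all tested genes fell and 33.0% rose. Hif1a, the gene of the oxygen-regulated factor HIF-1α, fell by 1.88 (edgeR adjusted p = 3.17e-13) and Stat3, which carries the interleukin-6 signal, fell by 0.86 (edgeR adjusted p = 6.72e-09). Of 6 genes of the interleukin-6 axis, which is known to induce Mt1, Mt2 and Slc39a14, 5 fell and 1 rose, with a median of -0.82, to be read against the same shares of all tested genes. Il6, the cytokine itself, fell by 4.83 (edgeR adjusted p = 4.76e-15), and Socs3, its feedback inhibitor, fell by 1.78 (edgeR adjusted p = 1.29e-12). The gene that rose, named after its values were seen, was the receptor gene Il6ra, by 0.97 (edgeR adjusted p = 1.17e-07). The list shares Stat3 with the list of factors. These values stand beside those of Mt1, Mt2 and Slc39a14 as measured, and a link between them was not tested.

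The genes whose pattern over the 6 libraries was most like that of Mt1 were found by the Pearson correlation of log2 CPM among 10991 genes with a mean of at least 100 counts. Ccl5, Gbp7 and Cxcl11, which are genes of chemokines and an interferon-induced GTPase, came first, each with r of 0.9999 or above. They were followed by many others, since 1125 genes had r above 0.99. For Mt2 the most like were Nme6 (r = 0.9995), Tubb2a (r = 0.9995) and 2210016F16Rik (r = 0.9990), and 337 of 10992 genes had r above 0.99. With 3 libraries in each of 2 groups that stand apart, the likeness of these genes cannot be told apart from the group difference. The points share their libraries, their depth and their treatment.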

How the data were processed

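Total RNA was extracted from NMCMs and 6 RNA-seq libraries were made from it. The labels name an Illumina TruSeq kit and the study's methods an ABclonal mRNA kit, and which was used is not settled here. Groups were taken from the sample titles. The authors deposited 1 table of raw counts per gene, with no normalization; per the labels, the tools were FastQC, HISAT2 and featureCounts and the build was GRCm39. The names of the β-SITO libraries carry a suffix C that the vehicle names lack, and its meaning cannot be told apart from the treatment. Tool versions, the strand setting and the handling of reads that match several genes are not given in the sources used here. Whole reads shared with an overlapping or near-identical gene can lower or raise a count.

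From the deposited counts, genes were filtered with filterByExpr, scaled by TMM and tested in R 4.3.3 with edgeR 4.0.16 (quasi-likelihood test, group as the only term, Benjamini-Hochberg adjustment over all tested genes). The DEG thresholds were 0.05 for the adjusted p and 2-fold for the change. CPM used TMM-scaled library sizes. CPM per kilobase used GENCODE vM21 exon lengths, matched by gene identifier. Promoters came from RefSeq (GRCm38.p6); coordinates of genes are those of the deposited table. The script was tested on simulated data. The coefficient of variation between replicates was 6.52%.

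Named genes were the 10 genes, other family genes past 2-fold, the 3 other family genes highest per length, at most 2 per further list (largest change, mean of at least 100 counts) and the 3 most like Mt1 and Mt2. The members and lists were chosen with earlier results of these data known. Alternatives were DESeq2 1.42.0, limma-voom (limma 3.58.1), RLE, upper-quartile and total-count scaling, no filter, at least 10 counts in 3 libraries, and each library left out.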

Additional observations from a re-analysis of the deposited data

How the results depend on the processing

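The direction of every one of the 10 genes was the same in all 130 alternative fits of single genes, and the call was the same in 127 of them. The number of genes of the set that were higher was 1, and became 0 with DESeq2, where Slc39a8 missed the threshold, 2 with upper-quartile scaling and 2 with scaling by total counts alone, where Slc39a10 passed it. Those scalings moved the median log2 fold change of all genes to 0.14. The number of lower genes stayed at 8 and the number of DEGs at 3 in every alternative. Over the alternatives 17.4% to 33.8% of all tested genes were lower and 16.6% to 41.7% were higher. The share of DEGs among all genes was not taken for them. The number of changed metallothionein and transporter genes, counted without Mtf1, was 16 to 19 (17 in the main analysis), to be read against the same shares. With upper-quartile scaling 41.4% of all tested genes were higher and 26% lower. No paired analysis was possible because the vehicle libraries are numbered 1 to 3 and the β-SITO libraries 4 to 6, so the groups share no number. Depth limits Mt2 most, with 3 counts in T5 and T6, where it was 20.2-fold to 42.7-fold lower as each library was left out in turn.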

Other observations

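Copper handling genes were listed because metallothioneins also bind copper. Of 11 genes, 10 were tested, and 1 was higher, 4 were lower and 5 did not pass, with a median log2 fold change of -0.23. Among all tested genes 33.8% were lower and 33.0% higher, so the count of lower genes is near the background. Sco1, a copper chaperone for cytochrome c oxidase in mitochondria, stood at 32.3 ± 1.14 CPM with vehicle and 12.2 ± 1.17 CPM with β-SITO (SD, n = 3 each), a log2 fold change of -1.40 (edgeR adjusted p = 1.42e-09). Slc31a2, which is related to the copper importer Slc31a1 and acts on vesicles, went from 49.7 ± 3.79 to 22.6 ± 1.08 CPM, a log2 fold change of -1.14 (edgeR adjusted p = 3.68e-09). The other listed partner of Sco1, Sco2, was listed at 0 counts in all 6 libraries, and whether its reads were left unassigned in the counting was not tested, so this 0 does not show that the gene was silent.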
